A study of Rattus norvegicus with 6 samples.

Results

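The genes described here encode matrix metalloproteinases (MMPs), ADAMTS proteases, ADAMTS-like proteins and tissue inhibitors of metalloproteinases (TIMPs). They were chosen by symbol, as Mmp, Adamts, Adamtsl or Timp followed by a number, and 43 of the 16770 genes in the count table matched: 17 Mmp, 17 Adamts, 5 Adamtsl and 4 Timp genes. RNA had been sequenced from cells grown out of the proximal aorta of 3-month-old rats of the spontaneously hypertensive strain (SHR) and of its normotensive control strain, Wistar Kyoto (WKY). The labels name no treatment, and explants of both strains were laid with the luminal side down and grown in a commercial endothelial medium to which serum, antibiotics and a growth supplement had been added. Each strain had 3 libraries, replicates 1 and 2 in batch 1 and replicate 3 in batch 2. The labels do not say what a batch is or whether each library came from its own animal, so the p-values speak only of the spread among these libraries, which may be technical.

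MMPs and ADAMTS enzymes are zinc-dependent proteases that are made as inactive precursors and cleave collagens, proteoglycans and other matrix proteins. TIMPs bind the active site of MMPs and block it, while ADAMTS proteases are blocked mainly by TIMP-3. ADAMTS-like proteins share the ancillary domains of the ADAMTS family but have no protease domain. In the vessel wall these genes are known for remodelling the basement membrane, the elastic layers and the versican-rich matrix.

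Levels are given as CPM, counts scaled to library size, which are not corrected for gene length, so levels of different genes are not compared. Differences between strains are log2 ratios of SHR over WKY from a fit with batch as a term, each with its SE and its p adjusted over all genes tested. Total counts lay between 18462032 and 19947286 per library, and a count of 0 allows a level of up to 3 counts, or 0.151 to 0.187 CPM, for counting error only. The endothelial label was checked on 10 marker genes, of which 8 were in the table. Their summed level was 16.7 to 23.4 CPM in WKY and 19.3 to 37.4 CPM in SHR, with Egfl7 and Tek holding most of it in every library. Of the 3 tested, Tek had 0.44 to 1.85 CPM in WKY and 4.72 to 9.38 CPM in SHR (edgeR adjusted p = 0.182), while Egfl7 and Vwf overlapped between strains. Cdh5 and Tie1 reached at most 0.105 CPM and Vwf at most 0.94 CPM. Pecam1 had 0.11 to 0.44 CPM in WKY and 0.46 to 2.18 CPM in SHR. The data thus go against the label, and the cells are called aortic explant cells. Fibroblast markers (8 of 8 in the table) summed to 4577 to 13607 CPM in WKY and 9279 to 11367 CPM in SHR. Col1a1 and Col1a2 held most of this sum in every library, and both, like Pi16, overlapped between strains. Dcn had 8.39 to 61.5 CPM in WKY and 245 to 1307 CPM in SHR, and Lum 16.8 to 69.2 and 85.8 to 599 CPM. In the same order, Dpt had 0.06 to 0.74 and 15.5 to 42.6 CPM, and Tcf21 0 to 0.12 and 1.17 to 24.0 CPM. Pdgfra had 171 to 255 CPM in WKY and 261 to 456 CPM in SHR. With an unadjusted p under 0.05, 5 of the 8 fibroblast markers were higher in SHR, against 6.10% of all genes tested. Tcf21 was the marker among these that passed the adjusted threshold (edgeR adjusted p = 0.0373). Smooth muscle markers (6 of 6) summed to 7389 CPM in WKY replicate 3 and to 689 to 1556 CPM in the other libraries. Mesothelial markers (7 of 7) summed to 1331 CPM in SHR replicate 3 and to 169 to 678 CPM in the other libraries. Msln held most of this sum in every library but WKY replicate 3. All 7 were highest in SHR replicate 3, where Lrrn4 had 103 CPM, against 0 to 5.71 CPM elsewhere. Wt1 had 30.7 CPM there and 0.06 to 3.28 CPM elsewhere. Macrophage markers (6 of 7) summed to 28.9 to 67.5 CPM, with Ptprc, Adgre1 and C1qa at 0 counts in every library. The part of these cell type markers in the results below was not tested. In bulk RNA, fewer cells of a type and less RNA per cell cannot be told apart.

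Of the 43 genes, 42 had at least 1 count, Adamts19 had none, and 33 passed the filter on low counts. The 10 that did not were Adamts17, Adamts19, Adamts20, Mmp1, Mmp9, Mmp10, Mmp12, Mmp15, Mmp25 and Mmp28. Apart from Mmp10, these stayed at or below 1.40 CPM in every library. Mmp9, the gelatinase B gene of leukocytes and activated tissues, had at most 3 counts in any library. Mmp11 and Mmp28 had estimated counts that were not whole (tolerance 0.001), as when reads are shared with another gene, and their values are uncertain.

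**Figure D1:**
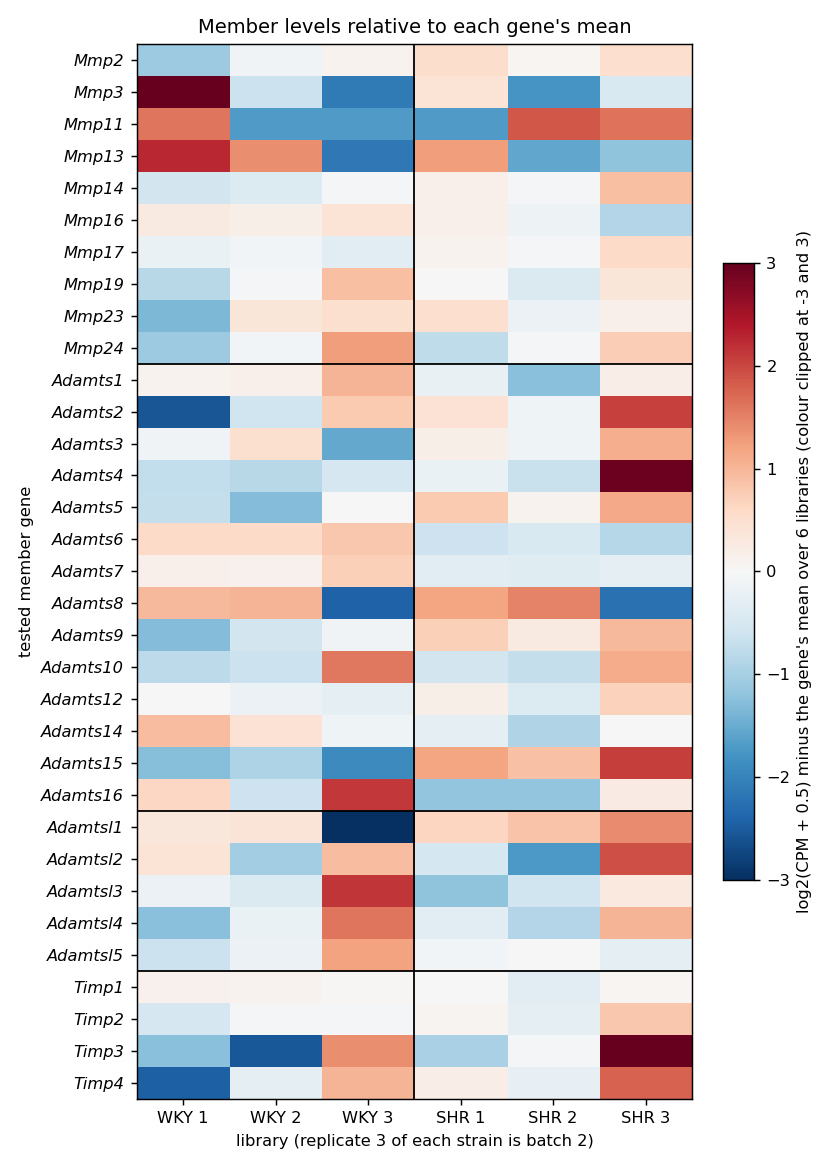
Level of the 33 tested genes (rows) in the 6 libraries (columns), as log2(CPM + 0.5) minus the gene's mean over the libraries, in log2 units; horizontal lines part the Mmp, Adamts, Adamtsl and Timp genes, and the vertical line parts the strains. SHR replicate 3 held the highest level of 14 genes, WKY replicate 3 of 11, WKY replicate 1 of 4, and SHR replicates 1 and 2 of 2 each, while WKY replicate 2 held none.

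Of these genes, 5 lie near each other on chromosome 8, in an Mmp cluster: Mmp13 (collagenase 3), Mmp12 (macrophage elastase), Mmp3 (stromelysin 1), Mmp1 (interstitial collagenase) and Mmp10 (stromelysin 2). Their proximal promoters are shown because Mmp13, Mmp12, Mmp3 and Mmp10 were highest in the same library, WKY replicate 1. Mmp1, with 1 count in all, cannot be ranked between libraries and is shown as their neighbour. Each line gives the 100 bases before the RefSeq transcript start in the GRCr8 build, plus strand. Capitals mark the AP-1 motif TGANTCA, which reads the same on both strands, and the TATA motif TATAAA, searched on the plus strand of the gene. The spans are chr8:12782729-12782828 for Mmp13, chr8:12866552-12866651 for Mmp12, chr8:12925181-12925280 for Mmp3, chr8:12943353-12943452 for Mmp1 and chr8:12974607-12974706 for Mmp10.
Mmp13: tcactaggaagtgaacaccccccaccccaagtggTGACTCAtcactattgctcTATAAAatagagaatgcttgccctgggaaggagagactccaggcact
Mmp12: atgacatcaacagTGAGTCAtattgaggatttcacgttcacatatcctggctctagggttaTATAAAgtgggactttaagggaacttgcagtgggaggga
Mmp3: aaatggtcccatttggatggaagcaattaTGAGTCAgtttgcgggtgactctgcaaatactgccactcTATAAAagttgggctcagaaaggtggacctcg
Mmp1: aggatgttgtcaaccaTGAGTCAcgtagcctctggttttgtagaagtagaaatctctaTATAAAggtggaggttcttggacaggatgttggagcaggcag
Mmp10: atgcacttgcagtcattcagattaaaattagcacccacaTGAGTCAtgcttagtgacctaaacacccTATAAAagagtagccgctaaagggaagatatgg

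In all 5 the AP-1 motif starts between 61 and 87 bases before the transcript start and the TATA motif between 32 and 47 bases before it. The AP-1 motif was TGACTCA in Mmp13 and TGAGTCA in the other promoters. Of the 43 genes, 32 were in the RefSeq promoter table, and these 5 were the members with the AP-1 motif in this window. Across 27457 genes with a promoter in the table, 2.45% held the AP-1 motif in the same window, 4.16% the TATA motif and 0.146% both. The motifs were chosen with the levels known and the pairing after the sequences had been seen. A match describes the letters and does not show that a factor binds.

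Mmp3, which cleaves proteoglycans and activates other MMP precursors, stood at 78.96 CPM in WKY replicate 1. It had 1.59 and 0.25 CPM in WKY replicates 2 and 3, and 3.83, 0.46 and 1.87 CPM in SHR replicates 1, 2 and 3. WKY replicate 1 was thus 20.6 times the next library, and the other 5 libraries of both strains overlapped. Mmp10 had 8.28 CPM in that library and at most 0.31 CPM in any other, so WKY replicate 1 was 26.3 times the next. Mmp12 had 5 counts and Mmp1 had 1 count in WKY replicate 1 and none elsewhere. Mmp13 had 27.5, 14.8 and 0.81 CPM in WKY and 13.4, 1.48 and 2.03 CPM in SHR, so that WKY replicate 1 was 1.86 times the next. These genes were singled out after their values were seen. The strain difference of Mmp3 was -2.77 on the log2 scale (2.41 SE, edgeR adjusted p = 0.663) with all libraries and 1.26 (1.11 SE, adjusted p = 0.740) without WKY replicate 1, so its direction rests on that library.

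The same library was highest in most inflammatory genes detected. Summed over the 8 detected of 10 listed inflammatory genes, WKY replicate 1 had 1067 CPM and the other libraries 41.7 to 136 CPM. The chemokine transcript Ccl2 had 599 CPM there and 4.35 to 43.4 CPM elsewhere, and Cxcl1 had 335 CPM there and 1.06 to 8.26 CPM elsewhere. The upstream cytokine genes Il1a and Il1b had 0 counts in every library, Tnf had at most 0.05 CPM, and Nfkbia was higher in SHR replicate 3 (127 CPM) than in WKY replicate 1 (109 CPM). Transcripts of AP-1 and Ets factors, which are known to act on MMP promoters, summed to 469 CPM in WKY replicate 1. Their sums were 327 to 426 CPM in the other libraries of batch 1 and 741 to 780 CPM in batch 2. The part of the inflammatory genes and of these factors in the Mmp3, Mmp10 and Mmp13 levels was not tested.

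**Figure D2:**
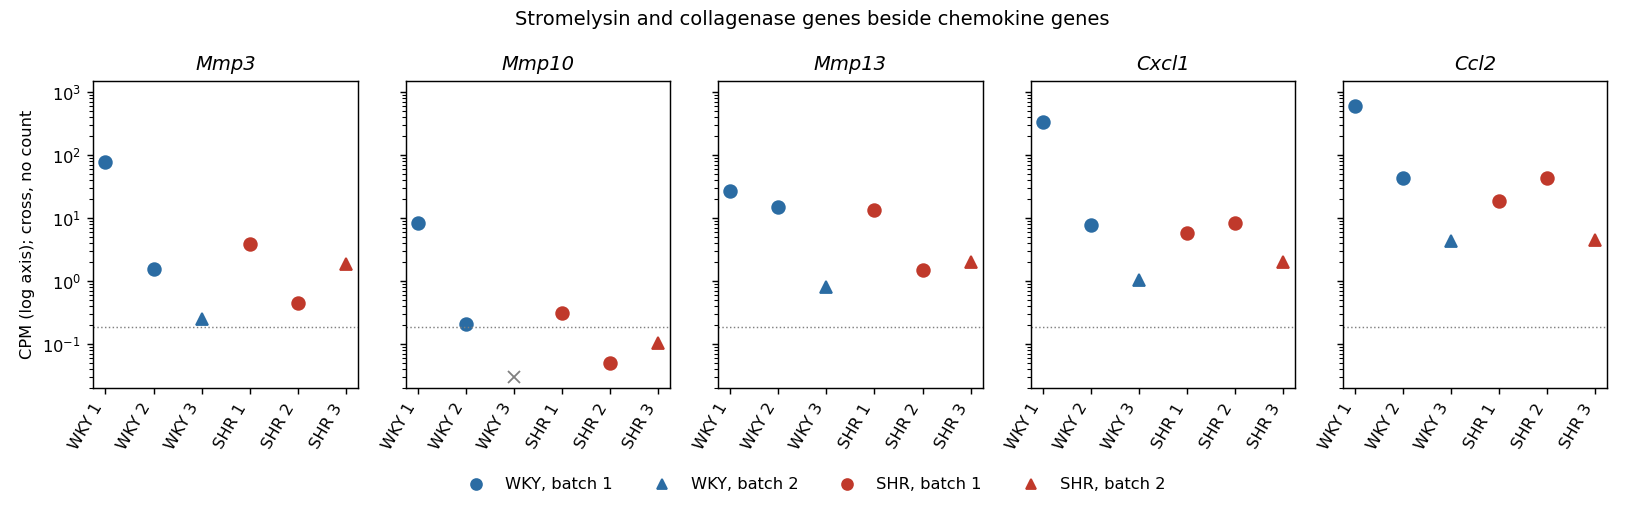
CPM on a log axis in each library for Mmp3, Mmp10 and Mmp13 and for the chemokine genes Cxcl1 and Ccl2; circles are batch 1, triangles batch 2, crosses mark no count, and the dotted line is the limit of 3 counts in the library with the highest limit (0.187 CPM). WKY replicate 1 is the highest library in all 5 plots, at 78.96 CPM for Mmp3 and 335 CPM for Cxcl1.

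The first comparison set SHR against WKY. None of the 33 tested genes was called by the edgeR quasi-likelihood test at an adjusted p below 0.05, against 0.254% of all genes, and 0 were called with a replicate block in place of batch, against 0.0476% of all genes. With an unadjusted p under 0.05, 6 were higher in SHR and 5 were lower, where the background was 6.10% and 7.18% of all genes tested. The DESeq2 Wald test called 5 higher (Adamts15, Adamts5, Adamts9, Mmp14 and Timp3) and 3 lower (Adamts6, Adamts7 and Adamts16), with 5.14% of all genes called. SHR and WKY libraries were fully separate in 9 of the 33, against 9.81% of all genes tested. The median log2 ratio was 0.20 over the 33 genes and -0.02 over all genes tested. Without WKY replicate 1, edgeR called 0 (0.0311% of all genes), while 6 were higher and 3 were lower with an unadjusted p under 0.05 (9.84% of all genes in either direction), and the median was 0.32. Adamts1 and Adamtsl3 were the members that left the lower group.

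Of the 6 tested ADAMTS genes whose products cleave aggrecan and versican, 5 had a positive difference and 3 of these an unadjusted p under 0.05. Among all genes tested, 5981 of 12614 had a positive difference, and 6.10% were higher with an unadjusted p under 0.05. Adamts15, a versican-cleaving protease, had 11.5, 14.6 and 7.21 CPM in WKY and 65.1, 52.5 and 121 CPM in SHR. Every SHR library was at least 3.59 times every WKY library. Its fitted log2 ratio was 2.77 (0.45 SE), or 6.83-fold, with an edgeR adjusted p of 0.126 and a DESeq2 adjusted p of 2.24e-08. It was 2.16 within batch 1 and 4.05 in the single pair of libraries of batch 2.

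Adamts5, the aggrecanase best known from cartilage loss, had 9.69, 6.29 and 16.3 CPM in WKY and 28.7, 17.5 and 36.8 CPM in SHR. The lowest SHR library was 1.07 times the highest WKY library, which was the batch 2 library, so the gap between strains was wider within each batch than across them. Its log2 ratio was 1.41 (0.27 SE, edgeR adjusted p = 0.160), 1.51 within batch 1 and 1.17 within batch 2. Adamts9, a protease of versican in development, had 16.2, 27.5 and 37.3 CPM in WKY and 66.8, 48.6 and 79.8 CPM in SHR, also without overlap. Its log2 ratio was 1.30 (0.25 SE, edgeR adjusted p = 0.158), 1.43 within batch 1 and 1.10 within batch 2. DESeq2 gave an adjusted p of 0.000661 for Adamts5 and 0.000559 for Adamts9.

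Adamts1, another versican-cleaving protease, was the member of this group with a negative difference. It had 661, 678 and 1256 CPM in WKY and 526, 259 and 704 CPM in SHR, lower in SHR within each batch but overlapping across them. Its log2 ratio was -0.79 (0.29 SE, edgeR adjusted p = 0.349, and not called by DESeq2). Adamts8 had 119, 123 and 10.9 CPM in WKY and 139, 169 and 12.4 CPM in SHR, so that each SHR library was slightly above the WKY libraries of its batch (adjusted p = 0.433). Adamts4, the other main aggrecanase, stood at 13.8 CPM in SHR replicate 3 and at 0.53 to 1.10 CPM in all other libraries.

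Of the 5 other tested ADAMTS genes outside the procollagen processing group, 3 were lower with an unadjusted p under 0.05 and 0 were higher. At the same threshold, 7.18% of all genes tested were lower and 6.10% higher. Adamts6, known from fibrillin microfibril assembly, had 37.3, 37.2 and 44.1 CPM in WKY and 16.0, 17.9 and 13.6 CPM in SHR. Every WKY library was at least 2.07 times every SHR library. This gene had the smallest edgeR p of the 33, with a log2 ratio of -1.32 (0.17 SE, adjusted p = 0.0719, and 2.81e-07 by DESeq2). Adamts7, which cleaves cartilage oligomeric matrix protein and acts in vascular smooth muscle, had 47.6, 46.7 and 71.1 CPM in WKY and 33.9, 33.1 and 34.7 CPM in SHR, again without overlap. Its log2 ratio was -0.67 (0.15 SE, adjusted p = 0.206), -0.49 within batch 1 and -1.03 within batch 2. Adamts16, a gene linked to blood pressure in rat genetic studies, was low throughout, with 1.41, 0.32 and 4.97 CPM in WKY and 0.05, 0.05 and 0.99 CPM in SHR. Its batch 1 SHR libraries held 1 count each, below the limit of 3 counts, and its log2 ratio was -3.06 (0.77 SE, adjusted p = 0.231).

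Adamts12, a relative of Adamts7, had 39.7, 34.9 and 32.6 CPM in WKY and 44.7, 29.9 and 64.1 CPM in SHR (adjusted p = 0.645). Adamts10, a relative of Adamts6, had 38.1, 42.0 and 199 CPM in WKY and 45.1, 40.3 and 143 CPM in SHR (adjusted p = 0.83). Both genes thus overlapped between strains, and in Adamts10 the batch 2 libraries stood apart in each strain. Adamts2, the main procollagen I N-proteinase, had 18.3, 73.5 and 191 CPM in WKY and 150, 101 and 463 CPM in SHR. Each SHR library exceeded the WKY libraries of its batch, with a log2 ratio of 1.40 (0.53 SE, adjusted p = 0.368) that became 0.99 (0.26 SE, adjusted p = 0.364) without WKY replicate 1. The other procollagen proteinase genes, Adamts3 and Adamts14, stayed at or below 4.11 CPM.

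**Figure D3:**
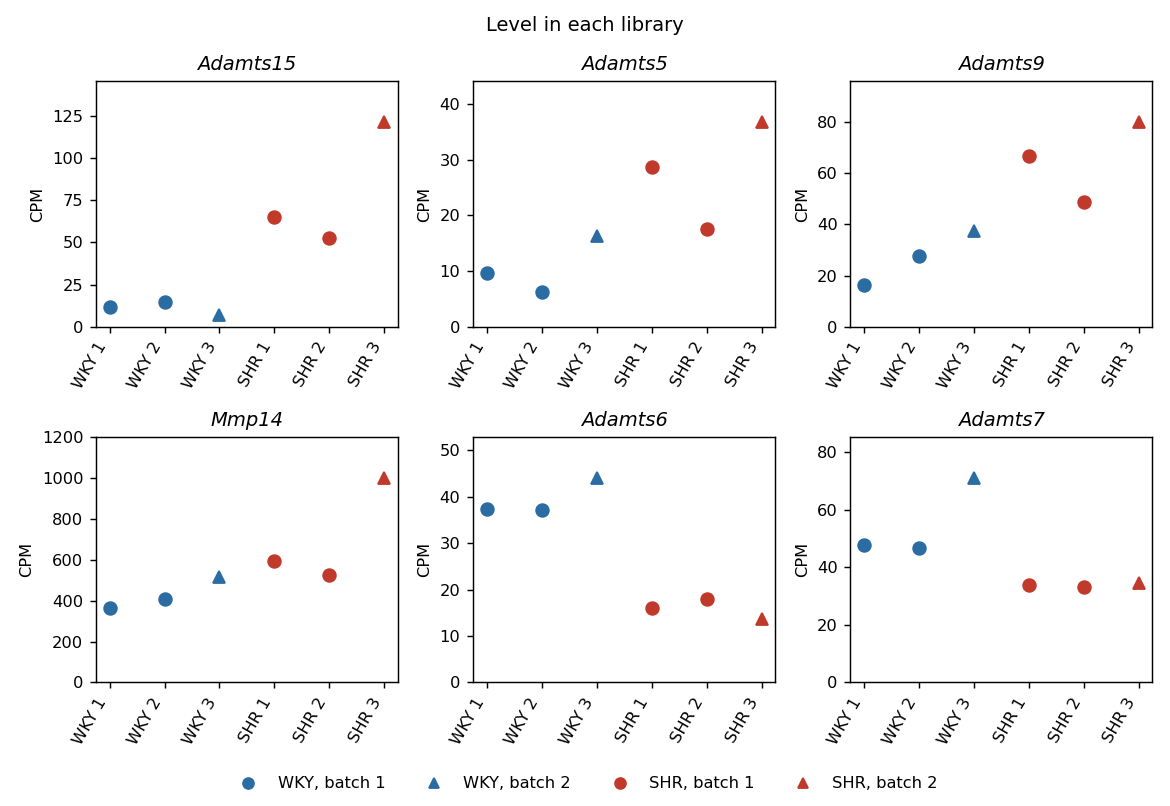
CPM in each library for Adamts15, Adamts5, Adamts9 and Mmp14, which were higher in every SHR than in every WKY library, and for Adamts6 and Adamts7, which were lower; circles are batch 1 and triangles batch 2. The 3 SHR libraries of Adamts15 lie between 52.5 and 121 CPM and the WKY libraries between 7.21 and 14.6 CPM.

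Among the MMPs, Mmp14 had an unadjusted p under 0.05 and none of the other 9 tested did. Mmp14 encodes the membrane-type protease that activates the MMP-2 precursor on the cell surface, in a complex with TIMP-2. It had 367, 406 and 516 CPM in WKY and 594, 525 and 1004 CPM in SHR, with the lowest SHR library 1.02 times the highest WKY library. Its log2 ratio was 0.67 (0.18 SE, edgeR adjusted p = 0.243, and 0.00148 by DESeq2), 0.53 within batch 1 and 0.96 within batch 2. Mmp2, the gelatinase A gene, had 640, 1260 and 1460 CPM in WKY and 1960, 1405 and 1922 CPM in SHR. These overlapped, with a log2 ratio of 0.68 (0.32 SE, adjusted p = 0.445) that became 0.40 (0.26 SE, adjusted p = 0.653) without WKY replicate 1, the lowest library.

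Mmp16, a membrane-type relative of Mmp14, was lower in each SHR library, with 149, 139 and 164 CPM in WKY and 135, 110 and 66.2 CPM in SHR (adjusted p = 0.409). Mmp19 had 90.3, 157 and 299 CPM in WKY and 161, 119 and 206 CPM in SHR (adjusted p = 0.944). Mmp24, the membrane-type protease best known from neurons, had 18.5, 37.5 and 96.5 CPM in WKY and 23.4, 38.5 and 67.3 CPM in SHR (adjusted p = 0.943). In both of these the strains overlapped and replicate 3 was the highest of each strain. Mmp23 had 30.3, 100.3 and 109 CPM in WKY and 110, 69.4 and 87.2 CPM in SHR, with WKY replicate 1 the lowest library (adjusted p = 0.893). Mmp17, a membrane-type protease held by a lipid anchor, was low but without overlap, at 1.72, 1.90 and 1.49 CPM in WKY and 2.20, 1.94 and 3.27 CPM in SHR (adjusted p = 0.595). Mmp11 was present at 4.49 CPM in WKY replicate 1, 5.40 in SHR replicate 2 and 4.57 in SHR replicate 3, with no count after rounding in the other 3 libraries.

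Of the ADAMTS-like genes, Adamtsl3 had an unadjusted p under 0.05, with 2.57, 2.06 and 14.8 CPM in WKY and 1.00, 1.78 and 3.79 CPM in SHR (log2 ratio -1.16 with 0.41 SE, adjusted p = 0.337). Adamtsl4, whose product binds fibrillin, had 105, 218 and 759 CPM in WKY and 202, 135 and 505 CPM in SHR (adjusted p = 0.878). Adamtsl5 had 39.4, 54.6 and 143 CPM in WKY and 58.3, 62.0 and 51.8 CPM in SHR (adjusted p = 0.841). Adamtsl2 stayed between 0.10 and 7.17 CPM. Adamtsl1 had 7.32 and 7.67 CPM in the batch 1 WKY libraries, 9.13 and 10.8 CPM in those of SHR and 16.0 CPM in SHR replicate 3, but 0 counts in WKY replicate 3. Against the limit of 3 counts in that library, SHR replicate 3 was at least 85.8-fold higher.

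Of the 4 inhibitors, Timp3 had an unadjusted p under 0.05. Timp1, the inducible secreted inhibitor, had 278, 273 and 260 CPM in WKY and 256, 206 and 265 CPM in SHR. It varied little, with a log2 ratio of -0.16 (0.16 SE, adjusted p = 0.704). Timp2 had 1269, 1745 and 1753 CPM in WKY and 1902, 1460 and 3155 CPM in SHR, and SHR replicate 3 stood above the overlapping others (log2 ratio 0.39 with 0.27 SE, adjusted p = 0.582). Timp3, the matrix-bound inhibitor that also blocks aggrecanases, had 9.54, 3.60 and 63.2 CPM in WKY and 11.8, 23.1 and 254 CPM in SHR. Within each batch its SHR libraries were higher, by 1.47 on the log2 scale in batch 1 and 2.01 in batch 2, and across batches they overlapped. The fitted difference was 1.62 (0.46 SE, edgeR adjusted p = 0.273, and 0.0115 by DESeq2), and 2.15 (0.35 SE, adjusted p = 0.207) without WKY replicate 1. Timp4, an inhibitor expressed in heart and vessels, had 5.81, 27.97 and 69.9 CPM in WKY and 39.0, 28.4 and 116 CPM in SHR (log2 ratio 0.91 with 0.57 SE, adjusted p = 0.551). It became 0.46 (0.22 SE, adjusted p = 0.568) without WKY replicate 1, the lowest library for this gene.

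Proteases and inhibitors were then compared as sums of CPM, which follow the genes with most counts: Mmp2 and Mmp14 held 71.1% to 86.9% of the Mmp counts, Adamts1 33.6% to 67.1% of the Adamts counts and Timp2 81.2% to 86.1% of the Timp counts. A score over chosen genes gets no test. The summed Mmp level was 1417, 2119 and 2649 CPM in WKY and 3003, 2277 and 3366 CPM in SHR, and that of Timp 1563, 2050 and 2146 CPM in WKY and 2209, 1717 and 3791 CPM in SHR. The Mmp to Timp ratio was 0.91, 1.03 and 1.23 in WKY and 1.36, 1.33 and 0.89 in SHR. Both SHR libraries of batch 1 thus lay above their WKY counterparts, by 0.47 on the log2 scale on average, while in batch 2 the SHR library lay below, by a log2 difference of -0.48. Averaged over batches the difference was -0.0019, against a pooled SD of 0.29 within strains, and without WKY replicate 1 it was -0.05.

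The summed Adamts level was 1006, 1090 and 1872 CPM in WKY and 1120, 773 and 1692 CPM in SHR. Its ratio to the Timp sum was 0.64, 0.53 and 0.87 in WKY and 0.51, 0.45 and 0.45 in SHR. Every SHR library lay below every WKY library, by -0.29 on the log2 scale within batch 1 and -0.97 within batch 2. The Timp sum is mostly Timp2, and Timp3 held at most 6.71% of the Timp counts. The average was -0.63 with a pooled SD of 0.27 within strains, and -0.56 without WKY replicate 1. By counts of genes, 13 of 24 tested proteases had a positive strain difference (median log2 ratio 0.25), as did 3 of 4 inhibitors (median 0.65) and 5981 of the 12614 genes tested (median -0.02). Without WKY replicate 1 the medians of proteases and inhibitors lay close together, at 0.33 and 0.39, with -0.02 over all genes.

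**Figure D4:**
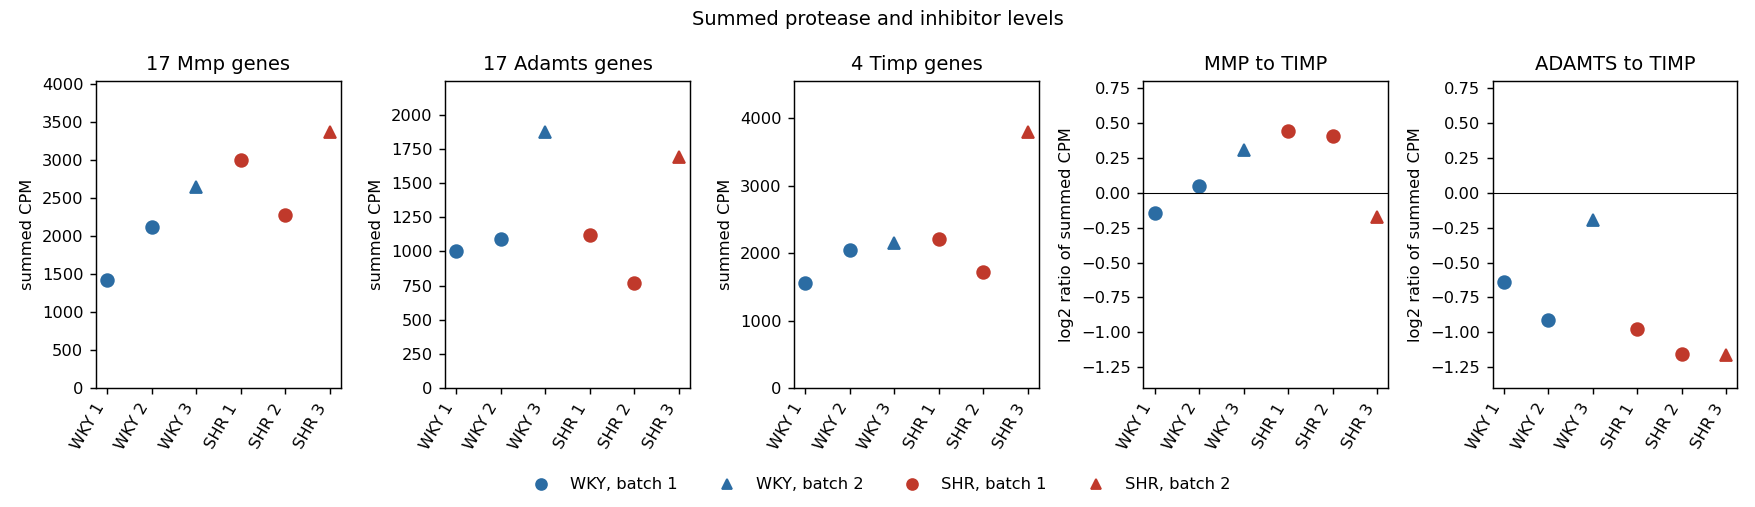
Summed CPM of the Mmp, Adamts and Timp genes in each library, and the log2 ratio of the Mmp and Adamts sums to the Timp sum; circles are batch 1 and triangles batch 2. The Mmp to Timp ratio is higher in SHR within batch 1 and lower in SHR within batch 2, and the Adamts to Timp ratio is lower in all 3 SHR libraries.

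Between batches, 11 of the 33 genes rose and 1 fell in batch 2 by the edgeR quasi-likelihood test, against 21.0% and 22.5% of all genes tested. DESeq2 called 14 higher and 2 lower, with 46.7% of all genes called. The median log2 difference was 0.58 over the 33 genes and -0.0015 over all genes. Batch 1 and batch 2 libraries were fully separate in 11 of the 33, against 57.6% of all genes tested. Both Timp3 and Timp4 rose, Timp3 from a mean of 12.0 CPM to 159 CPM (log2 ratio 3.58 with 0.46 SE, edgeR adjusted p = 0.00395). Adamts8 fell from a mean of 138 CPM in batch 1 to 11.7 CPM in batch 2 (log2 ratio -3.55 with 0.17 SE, edgeR adjusted p = 0.000884), with no overlap and similar levels in both strains.

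Adamts10 rose from 41.4 to 171 CPM (log2 ratio 2.03 with 0.17 SE, adjusted p = 0.00135), in both strains. Timp3, Adamts8 and Adamts10 were the genes called with each of the 6 libraries left out in turn. Adamtsl4 (165 to 632 CPM, log2 ratio 1.92, adjusted p = 0.00919) and Adamtsl3 (1.85 to 9.30 CPM, log2 ratio 2.11, adjusted p = 0.0105) lost the call without WKY replicate 3 alone (adjusted p = 0.0767 and 0.104). The other calls were lost in 3 or more of these 6 fits. Mmp24 (adjusted p = 0.0236) lost it without WKY replicate 3 (0.171), SHR replicate 1 (0.0627) or SHR replicate 3 (0.0597). Adamts2 (0.0336), Adamts16 (0.019) and Timp4 (0.0447) lost it without WKY replicate 3 (0.169, 0.0623 and 0.208) or any SHR library (up to 0.139, 0.0798 and 0.161). Mmp14 (0.0361) and Adamts4 (0.0493) kept it only without WKY replicate 3, with up to 0.164 and 0.607 otherwise, in both cases without SHR replicate 3. Mmp19 (0.0497) lost it in all 6 (0.0554 to 0.325). The count of calls fell from 12 to 7 without WKY replicate 3, SHR replicate 1 or SHR replicate 2, and not all of these 7 were among the 12. Those outside the 12 were Mmp16 and Adamts15 without WKY replicate 3, Adamts1 and Adamts5 without SHR replicate 1, and Mmp13 without SHR replicate 2. Adamts4 was high in SHR replicate 3 only. The smooth muscle marker sum was 7389 and 1556 CPM in the batch 2 libraries and 689 to 794 CPM in batch 1. A sum of chondrocyte markers, mostly Sox9, was 108 and 36.6 CPM in batch 2 and 4.30 to 11.5 CPM in batch 1. The endothelial sum was 16.7 and 19.3 CPM in batch 2 and 19.5 to 37.4 CPM in batch 1. Fibroblast, mesothelial and macrophage sums overlapped between batches. The part of these markers in the batch differences was not tested.

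**Figure D5:**
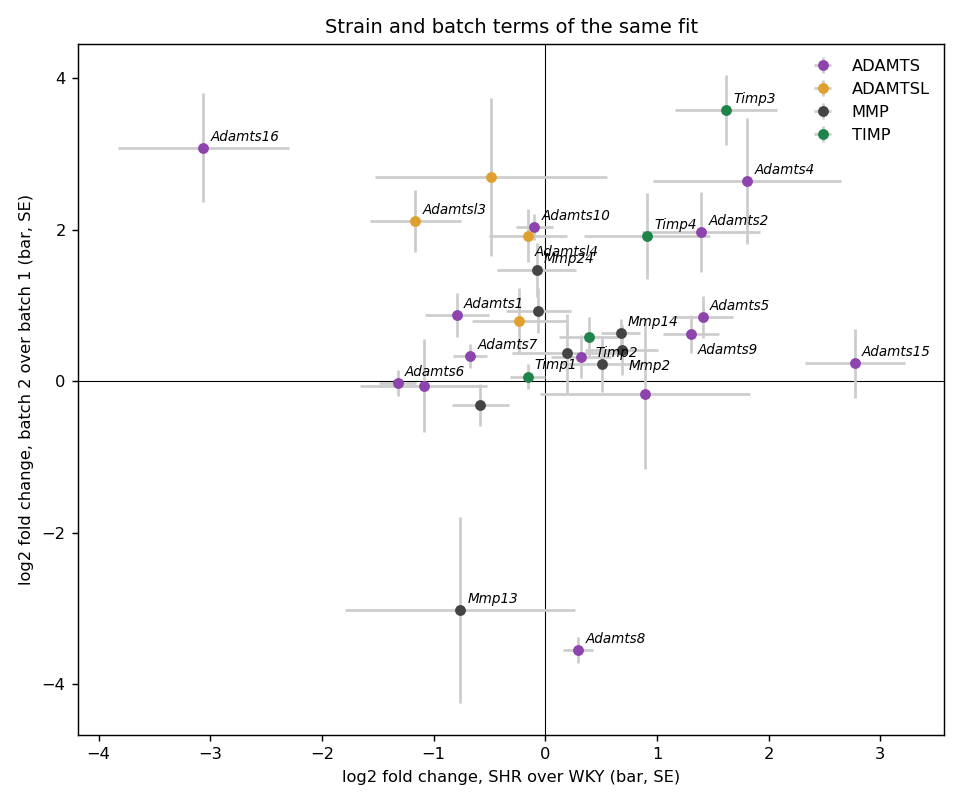
Log2 fold change of SHR over WKY (horizontal) against that of batch 2 over batch 1 (vertical) from the same fit, with bars of 1 SE, for 30 of the 33 tested genes (Adamtsl1, Mmp11 and Mmp3, with wider errors, are left out). Adamts15 lies at 2.77 by strain and 0.24 by batch, while Adamts8 lies at 0.29 by strain and -3.55 by batch, and Timp3 is high on both axes.

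Whether the strain difference itself differed between batches was tested with an interaction term, with 2 residual degrees of freedom. By edgeR 0 of 33 genes were called, against 0.00% of all genes, and 6 had an unadjusted p under 0.05, against 12.7% of all genes tested. DESeq2 called Adamts15, Adamtsl5 and Adamtsl1, with 3.48% of all genes called, and edgeR called 1 member without WKY replicate 1, with 1.49% of all genes called, and 2 without WKY replicate 2, with 1.91% of all genes called. For Adamts15 the strain difference was larger in batch 2 by 1.90 on the log2 scale (edgeR adjusted p = 0.203). For Adamtsl5, WKY replicate 3 stood at 143 CPM and all other libraries at 39.4 to 62.0 CPM (interaction -1.82 on the log2 scale, edgeR adjusted p = 0.206). For Adamtsl1 the edgeR adjusted p was 0.0845, and WKY replicate 3, with no count, was the library that stood apart.

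Other genes of the same pathway were taken from lists. In SHR against WKY, edgeR called 0 of their tested members, against 0.254% of all genes, and the differences that follow are by strain. With an unadjusted p under 0.05, 6.10% of all genes tested were higher and 7.18% lower. Of 6 tested inhibitors and clearance genes, 1 was higher with an unadjusted p under 0.05, and it was Spock2, a testican that binds proteases (0.86, 4.07 and 2.11 CPM in WKY, 10.5, 5.61 and 57.8 CPM in SHR, adjusted p = 0.347). The next gene, Lrp1, the receptor that clears MMPs, had an adjusted p of 0.617. Of 8 activators and inducers, 1 was higher and 1 lower. The lower gene was Plau, the urokinase gene, with 45.1, 42.1 and 4.23 CPM in WKY and 21.8, 14.0 and 4.42 CPM in SHR (adjusted p = 0.364), and the higher was the proprotein convertase gene Pcsk6 (adjusted p = 0.371).

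Of 10 tested ADAM and astacin proteases, Adam33 was lower with an unadjusted p under 0.05 (19.6, 28.5 and 94.5 CPM in WKY, 16.5, 16.5 and 34.2 CPM in SHR, adjusted p = 0.277), followed by Adam12 (adjusted p = 0.383). Among 12 tested substrate genes, Dcn and Col3a1 were higher and Comp and Fn1 lower with an unadjusted p under 0.05. The shares over all genes tested were 6.10% higher and 7.18% lower. Comp, the substrate of Adamts7, had 0.71, 0.95 and 2.36 CPM in WKY and 0.21, 0.25 and 0.47 CPM in SHR (log2 ratio -2.00 with 0.44 SE, adjusted p = 0.197). Its batch 1 SHR libraries lay close to the limit of 3 counts, which was 0.157 and 0.153 CPM in SHR replicates 1 and 2. Dcn, the collagen-binding proteoglycan decorin, had 61.5, 26.9 and 8.39 CPM in WKY and 386, 245 and 1307 CPM in SHR (log2 ratio 4.05 with 1.14 SE, adjusted p = 0.272). Acan, the aggrecan gene and best known substrate of Adamts5 and Adamts15, reached at most 1.62 CPM, while versican, Vcan, had 245 to 397 CPM in WKY and 245 to 296 CPM in SHR (adjusted p = 0.596). Of 4 tested inflammatory genes and 9 AP-1 and Ets factors, 0 had an unadjusted p under 0.05. The genes with the smallest p were Ccl2 and Cxcl1 (adjusted p = 0.509 and 0.539) and Fosb and Ets1 (0.513 and 0.578).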

How the data were processed

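The authors deposited estimated counts per gene, not normalized, in 1 column per library, and a second table of log2 values for the same libraries. The submitters' processing notes list RSEM 1.2.28, Bowtie2 2.4.4 and DESeq2 1.42.1, with Rnor_6.0 as the genome build; what each did, and whether strand was used, is not stated there. In the log2 values the authors deposited, batch means were equal in every gene (largest difference 7.5e-09), so these values served as an alternative for the strain term only. Reads were paired-end, 100 bases, per the labels.

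Non-whole values made up 8.96% of the count table (tolerance 0.001), and all were rounded. Genes were kept with filterByExpr by strain (12614 of 16770), libraries were scaled by TMM, and strain and batch were tested as terms of a single model in edgeR 4.0.16 by its quasi-likelihood F-test (robust, 3 residual degrees of freedom) in R 4.3.3. The Benjamini-Hochberg adjustment ran over all genes tested, the threshold was 0.05 and tests were two-sided. SEs were computed from the fold change and F. Within-batch differences are of log2 CPM with a prior count of 2. Alternatives used DESeq2 1.42.0 and limma 3.58.1. The code was tested on simulated data in which 200 of 12614 genes were changed by strain. The strain test called 22% of the 2-fold and 66% of the 4-fold changes, with 10 false calls, so many differences of that size would be missed. No 2 libraries agreed within sampling noise (chi-square per gene 46.7 to 461).

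Values in every library are given for the Timp genes, for members averaging 20 CPM or more, and for members averaging 1 CPM or more whose unadjusted strain p was under 0.05. Of each list of other pathway genes, the 2 with the smallest p are named. Acan, Vcan and the inflammatory genes other than Ccl2 and Cxcl1, and Mmp3, Mmp10, Mmp11, Mmp13, Adamts4, Adamtsl1 and the low genes, lie outside that rule and were picked with their values in view. The members and lists were chosen with earlier results of these data known. Replicate numbers are shared between strains. Same-numbered libraries deviated together from their strain means (correlations 0.30, 0.40 and 0.66 for replicates 1, 2 and 3), but within batch 1 the correlation was -0.20, so the first values follow the batches. Promoter sequences came from a RefSeq table of the GRCr8 build, which is not the build in the notes.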

Additional observations from a re-analysis of the deposited data

Results flagged for a closer look

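Within batch 1, which holds 4 libraries of both strains, a library was set apart when its gap to the nearest other library, as a share of the whole range, passed Dixon's critical value for 4 values. Chance sets apart about 1 in 20 such groups only if the values follow a normal distribution. The rule was applied to CPM without logs, so that share may not hold here. WKY replicate 1 stood apart in Mmp3, at 78.96 CPM against 3.83 CPM in the next library (gap 0.957 of the range), and in Mmp10, at 8.28 CPM against 0.31 CPM (gap 0.968 of the range). Both genes had also been singled out above by the same values, so the rule adds no separate evidence.

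The Mmp to Timp log2 ratio differed in direction between batches. In batch 1 both SHR libraries lay above both WKY libraries, by 0.47 on average, and in batch 2 the SHR library lay below the WKY library, by -0.48. This difference between batches was not tested, and batch 2 holds 1 library of each strain.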

How the results depend on the processing

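The 0 calls by strain were also found with DESeq2 size factors, no filter, no batch term, batch 1 only, each library left out and limma on the log2 values, and with the replicate block (0 of 33, with 6 genes called in all against 32), while the DESeq2 Wald test called 8. The 12 calls by batch became 7 to 10 with a library left out, some of them genes outside the 12. The 0 interaction calls became 3 with DESeq2 and 0 to 2 with a batch 1 library left out (leaving out replicate 3 gives no value). The Mmp to Timp log2 difference of -0.0019 was -0.0494 to 0.472 with a library left out, 0.47 in batch 1 only and -0.48 as a mean of log2 CPM over genes. The Adamts to Timp difference of -0.63 was -0.70 to -0.29 with a library left out, -0.29 in batch 1 only and -0.39 as a mean of log2 CPM over genes. Among the 24 genes given in every library by the naming rule, the strain log2 ratio turned sign in batch 1 only for Mmp24 (0.14), Mmp19 (0.17), Adamtsl4 (0.058), Adamtsl5 (0.35), Adamts10 (0.0903) and Adamts12 (-0.0036). With a library left out it ranged from -0.39 to 0.18 for Mmp24, -0.24 to 0.71 for Mmp23, -0.33 to 0.18 for Mmp19, -0.47 to 0.12 for Adamtsl4, -0.58 to 0.36 for Adamtsl5 and -0.20 to 0.10 for Adamts10. The batch log2 ratio then ranged from -0.90 to 0.19 for Mmp16, -0.0499 to 0.785 for Mmp23, -0.0849 to 0.188 for Timp1, -0.20 to 0.77 for Adamts12, -0.86 to 1.03 for Adamts15, -0.23 to 1.61 for Adamtsl5 and -0.33 to 0.25 for Adamts6, which was 0.013 with DESeq2 size factors. Outside those 24, the sign also turned under at least 1 alternative for Adamts3, Adamtsl2, Mmp13 and Mmp3 by strain and for Adamts3, Adamts14, Adamtsl1, Mmp11 and Mmp17 by batch. The cause of these shifts was not tested. None of the genes that turned sign was called in the main fit for that term. Sums per kb of coding sequence were not run, because no protein or transcript lengths were used here.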
